A study of Mus musculus with 6 samples.

Results

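The 10 genes described here are Atf4, Ddit3, Atf5, Asns, Psat1, Trib3, Ppp1r15a, Chac1, Sesn2 and Ddit4, the ATF4 and CHOP output of the integrated stress response. They were listed by name as known targets, with no threshold on their values, and all 10 of 10 were found among the 24517 genes of the count tables. All 10 passed the filter on low counts, which left 16347 genes for testing.

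RNA sequencing was performed on whole colon tissue of mice in 2 groups of 3 libraries each. NSD2∆IE mice had lost NSD2, which dimethylates histone H3 at lysine 36, from the intestinal epithelium, and NSD2fl/fl mice carried the floxed gene intact and were the controls. Deletion was driven by Villin-Cre, which is active in intestinal epithelial cells, so muscle, nerve and immune cells of the tissue kept the gene. Both groups were on a C57BL/6J background and, per the labels, spent 16 weeks on HFCD, a diet rich in fat and cholesterol (the text of the study gives a longer period), with no group on a normal diet in these data. The labels give neither age nor sex, while the methods of the study describe male littermates.

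The integrated stress response begins when a kinase, such as PERK under endoplasmic reticulum (ER) stress or GCN2 under amino acid shortage, phosphorylates the translation factor eIF2. Most protein synthesis then falls, but the Atf4 mRNA is translated more, and ATF4 switches on genes for amino acid supply, for feedback on the response itself and, with its partner CHOP (the product of Ddit3), for cell death. PERK is 1 arm of the unfolded protein response, beside IRE1 and ATF6, which chiefly raise chaperones and degradation factors of the ER. In the intestine this machinery is best known from secretory cells, such as goblet cells, with their heavy load of protein folding. Since much of the control of ATF4 lies in translation, mRNA levels alone do not measure its activity.

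ATF4 binds a composite element shared with C/EBP factors, whose core was searched for as TGATGNAA on both strands of the RefSeq promoter windows (GRCm38.p6, 300 bases each, 250 before and 50 after a start site). The core was present in 1304 of 32851 windows (3.97%). The 10 genes had 12 such windows, and it was found in those of Asns, Chac1 and Trib3. The stretches around the matches are printed here 5′ to 3′ along the strand of the gene, with the core in capitals, because this core is what ATF4 recognises in a target. The match began 23 bases before the start site in Asns (chr6:7693214-7693243, minus strand), on the strand of the gene. The Chac1 match began 193 bases before the start (chr2:119351022-119351081, plus strand) and the Trib3 match at base 15 after it (chr2:152344027-152344056, minus strand), both on the opposite strand. Start sites here are those of RefSeq. By the GENCODE gene bounds given with each gene below, the Asns core lies just inside the gene and the Trib3 core just before it.
Asns: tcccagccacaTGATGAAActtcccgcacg
Chac1: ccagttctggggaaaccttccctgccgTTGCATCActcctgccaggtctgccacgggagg
Trib3: tagctcaggtTTACATCAgccgggcgggga
These letters were not in the windows of Atf4, Ddit3, Atf5, Psat1, Ppp1r15a, Sesn2 or Ddit4. A match is a description of sequence and was not tested as a binding site.

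The libraries held 38041832 to 38604680 counts, so a count of 3, the most that a count of 0 allows, was at most 0.0847 CPM (each library's counts brought to the same total, with TMM factors), a limit that covers counting error only. Nsd2 itself, measured over the whole tissue, was lower in every NSD2∆IE library (972, 914 and 1139 counts) than in any NSD2fl/fl library (1840, 2091 and 2455 counts). Sex-linked transcripts separated the groups completely: Xist had at most 4 counts in any NSD2fl/fl library and at least 21217 in any NSD2∆IE library, and the Y-linked Ddx3y, Eif2s3y, Kdm5d and Uty together had at least 5058 and at most 1. Deletion of NSD2 and the sex-linked pattern therefore cannot be told apart in any difference between the groups given here. The libraries also stood apart irrespective of genotype. Hoxb13, a gene of the distal colon, was at 310 to 365 CPM in NSD2fl/fl replicates 1 and 3 and NSD2∆IE replicate 1. It was at 0.706 to 26.2 CPM in the other 3. Sums of 8 colonocyte markers were 3138 to 5046 CPM in the libraries high in Hoxb13 and 6907 to 13394 CPM in the others. Sums of 5 neutrophil markers were 114 to 189 CPM against 3.23 to 35.9 CPM. The epithelial markers Epcam, Vil1, Cdx2 and Krt20 had at least 2974 counts in each library. Of 9 general epithelial markers, 8 were fitted lower in NSD2∆IE (median log2 fold change -0.32, 1 past the second threshold defined below), with sums of 9955 to 15961 CPM in NSD2fl/fl and 9447 to 10858 CPM in NSD2∆IE. Of 7 goblet cell markers, 5 were fitted lower and 0 passed, with sums of 28327 to 50478 CPM, highest in NSD2fl/fl replicate 3, against 19723 to 30996 CPM. All 10 smooth muscle markers were fitted higher in NSD2∆IE, 9 of them past that threshold, with summed levels of 1626 to 4505 CPM in NSD2fl/fl and 5588 to 12010 CPM in NSD2∆IE. Markers of the enteric nervous system (10 of 11 past that threshold, 62.5 to 114 against 144 to 185 CPM) and of adipocytes (3 of 6 tested, 15.1 to 30.02 against 38.3 to 88.2 CPM, with Adipoq, Plin1, Lep and Retn at 0 in NSD2fl/fl replicate 2) went the same way. All 9 B and plasma cell markers were fitted lower, 1 of them past the threshold, with sums of 1278 to 2452 against 1060 to 1540 CPM. In bulk tissue, fewer cells of a type and less RNA per cell cannot be told apart, and the part of these differences in the values below was not tested.

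None of the 10 genes differed between NSD2fl/fl and NSD2∆IE colons at an adjusted p under 0.05 (edgeR's quasi-likelihood test with Benjamini-Hochberg adjustment over all genes tested), where the background was 0.0306% of all genes tested (5 of 16347). None reached an unadjusted p under 0.05, which 11.1% of all genes did, and DESeq2 called 0 as well at either threshold. A second threshold, which asked for an unadjusted p under 0.05 and a log2 fold change beyond 0.322 either way, was passed by 0 of the 10 in each direction, against a background of 2.21% of genes lower and 8.05% higher in NSD2∆IE. The fitted log2 fold change was below 0 for 7 genes and above 0 for 3, with a median of -0.15, while over all genes tested 56.3% were below 0 and the median was -0.04. This split did not hold throughout: 5 of the 10 were below 0, with a median of -0.0014, without NSD2fl/fl replicate 2, and 5 again with library totals alone and in both fits to FPKM, with medians of -0.02. The smallest p was that of Atf5 (adjusted p = 0.570). Only Ddit3, lower, and Atf5, higher, had 3 NSD2∆IE values that did not overlap the 3 NSD2fl/fl values, 2 of 10 genes where 18.7% of all genes tested did so in either direction (7.28% lower and 11.4% higher). Absence of a call does not show that the levels were equal: the standard errors of the log2 fold changes ran from 0.116 for Atf5 to 0.622 for Chac1.

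**Figure D1:**
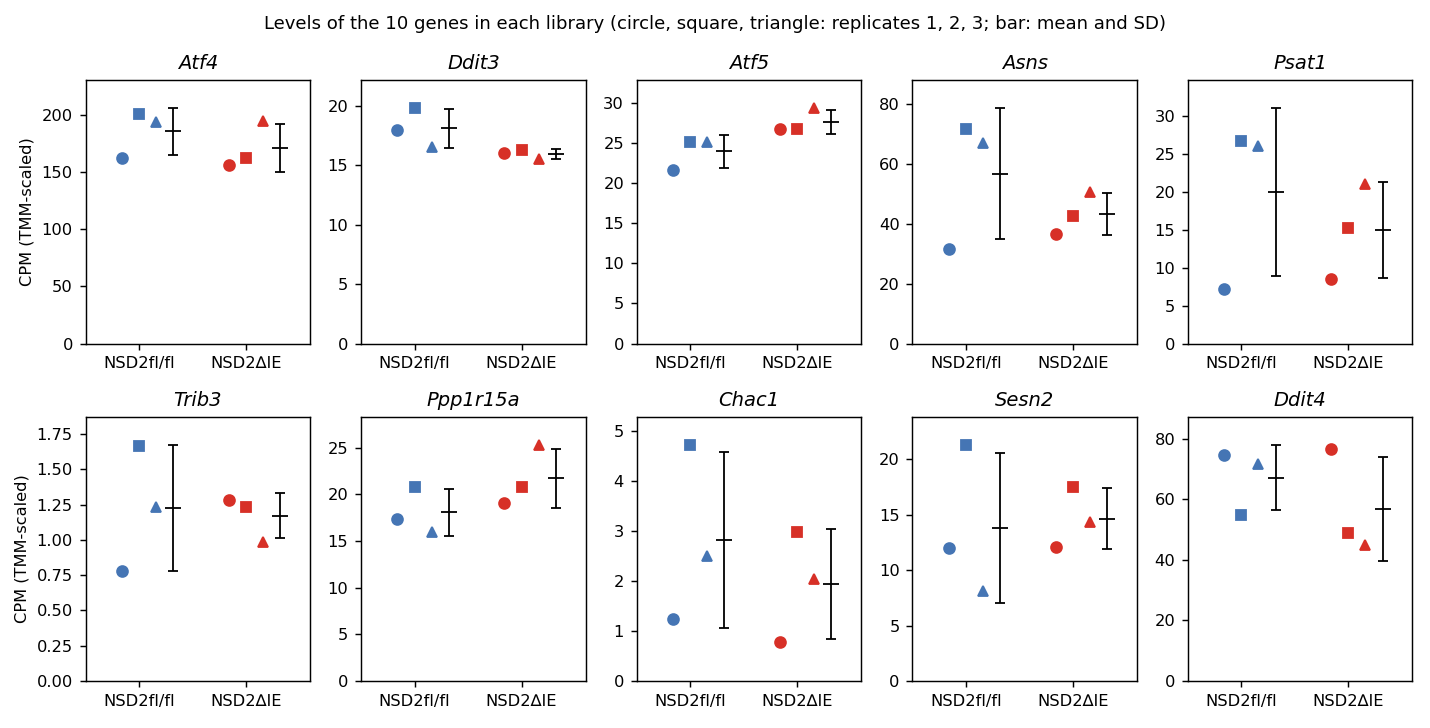
Levels of the 10 genes in CPM (linear axis from 0) by group, with circles, squares and triangles for replicates 1, 2 and 3 and a bar for the mean ± SD of 3 libraries. The groups are apart only for Ddit3 and Atf5, and the NSD2fl/fl values of Asns, Psat1, Chac1 and Sesn2 spread at least 2.27-fold.

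The transcription factors were the steadiest of the 10 genes. Atf4 (chr15:80255184-80257541 on GRCm38, plus strand), the central transcription factor of the response, stood at 162, 201 and 194 CPM in NSD2fl/fl replicates 1, 2 and 3 and at 156, 162 and 195 CPM in NSD2∆IE replicates 1, 2 and 3. NSD2∆IE replicate 3 lay among the controls, so the groups overlapped. The means were 186 ± 20.5 and 171 ± 21.0 CPM (SD, n = 3 each). They differed by -0.12 on the log2 scale (SE 0.143, adjusted p = 0.787), a direction that turned with library totals alone and with both fits to FPKM. Its highest library was 1.29-fold above its lowest, against a median of 1.66-fold over all genes tested.

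Ddit3 (chr10:127290774-127296288, plus strand) encodes CHOP. It had 18.0, 19.8 and 16.5 CPM in NSD2fl/fl and 16.0, 16.3 and 15.5 CPM in NSD2∆IE, so that all 3 NSD2∆IE libraries lay just below the lowest control. Its log2 fold change was -0.18 (SE 0.125, adjusted p = 0.634), and its groups overlapped with upper-quartile factors or library totals alone. Ddit3 overlaps Mars1, a methionyl-tRNA synthetase gene on the other strand with 36.2 to 69.0 CPM. The use of strand in counting is not given in the sources used here. It is therefore not known to which of these genes, if any, reads of the shared stretch were counted.

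Atf5 (chr7:44812256-44816658, minus strand), a relative of ATF4 that induces mitochondrial and other stress genes, went the other way. It had 21.6, 25.1 and 25.1 CPM in NSD2fl/fl and 26.7, 26.8 and 29.4 CPM in NSD2∆IE, each NSD2∆IE library above each control. NSD2∆IE was 0.21 higher on the log2 scale in the fit (SE 0.116, adjusted p = 0.570). The groups stayed apart under every scaling tried and without any 1 library, and Atf5 passed the second threshold with library totals alone and on log2(FPKM + 0.1), but its adjusted p was not under 0.05 in any of the 16 alternatives. Atf5 overlaps Nup62 and Il4i1 on the other strand. Nup62 was at 39.2 to 55.4 CPM and differed by -0.18 on the log2 scale (SE 0.122), and Il4i1 had at most 6 counts.

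Both enzymes of amino acid synthesis were lowest in replicate 1 of each group. Asns (chr6:7675169-7693254, minus strand), asparagine synthetase, had 31.5, 71.7 and 66.8 CPM in NSD2fl/fl and 36.6, 42.7 and 50.7 CPM in NSD2∆IE. NSD2fl/fl replicate 1 was the lowest of all 6 libraries and the other controls were the highest. The mean was 56.7 ± 21.9 CPM in NSD2fl/fl and 43.3 ± 7.06 CPM in NSD2∆IE (SD, n = 3 each). The log2 fold change of -0.39 (SE 0.308, adjusted p = 0.682) became -0.68 without NSD2fl/fl replicate 1 (adjusted p = 0.173, unadjusted p of 0.00616).

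Psat1 (chr19:15904678-15947337, minus strand), phosphoserine aminotransferase of serine synthesis, had 7.14, 26.7 and 26.0 CPM in NSD2fl/fl and 8.52, 15.3 and 21.1 CPM in NSD2∆IE. The spread within a group, 3.74-fold in NSD2fl/fl and 2.47-fold in NSD2∆IE, was larger than the difference of the means, 19.96 ± 11.1 against 15.0 ± 6.28 CPM. In the fit it differed by -0.41 on the log2 scale (SE 0.534, adjusted p = 0.800), and by -0.82 without NSD2fl/fl replicate 1 (adjusted p = 0.347). Without that library neither Asns nor Psat1 overlapped between the groups.

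Feedback on the response is carried by Trib3, a pseudokinase that restrains ATF4 and CHOP, and by Ppp1r15a, which encodes GADD34, the subunit that directs a phosphatase to eIF2. Trib3 (chr2:152337422-152344032, minus strand) was the lowest of the 10 genes, with 30 to 59 counts a library, or 0.779, 1.67 and 1.24 CPM in NSD2fl/fl and 1.29, 1.24 and 0.988 CPM in NSD2∆IE. The NSD2∆IE values lay inside the range of the controls. The fitted log2 difference of Trib3 was -0.07 (SE 0.365, adjusted p = 0.955), a direction that turned in 6 of 16 alternatives, so no direction can be given.

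Ppp1r15a (chr7:45522916-45526268, minus strand) had 17.3, 20.8 and 16.0 CPM in NSD2fl/fl and 19.1, 20.7 and 25.2 CPM in NSD2∆IE. NSD2fl/fl replicate 2 overlapped the NSD2∆IE libraries, and without it, or with library totals alone, the groups were apart. NSD2∆IE minus NSD2fl/fl, on the log2 scale, was 0.27 (SE 0.164, adjusted p = 0.601), which stayed between 0.14 and 0.40 in all 16 alternatives. Tulp2, which overlaps it on the other strand, had 2 to 19 counts.

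Chac1 (chr2:119351229-119354381, plus strand), which encodes an enzyme that breaks down glutathione, varied most. It had 1.246, 4.72 and 2.498 CPM in NSD2fl/fl and 0.782, 2.98 and 2.05 CPM in NSD2∆IE, from 31 to 167 counts. Its libraries followed the same order in both groups, with replicate 2 highest and replicate 1 lowest, and spanned 6.03-fold over all 6. Between the groups it differed by -0.54 on the log2 scale (SE 0.622, adjusted p = 0.776), a difference that turned to 0.054 without NSD2fl/fl replicate 2.

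Sesn2 and Ddit4 both restrain the growth kinase complex mTORC1, Sesn2 as a leucine sensor and Ddit4 (also known as REDD1) through the TSC complex. Sesn2 (chr4:132492032-132510501, minus strand) had 12.04, 21.3 and 8.11 CPM in NSD2fl/fl and 12.1, 17.5 and 14.4 CPM in NSD2∆IE. The controls held both the highest and the lowest of the 6 values. For Sesn2 the fitted log2 difference was 0.09 (SE 0.352, adjusted p = 0.9399), whose direction turned in 4 of 16 alternatives.

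Ddit4 (chr10:59949669-59951834, minus strand) had 74.8, 54.9 and 71.7 CPM in NSD2fl/fl and 76.7, 48.9 and 44.9 CPM in NSD2∆IE. The highest value was that of NSD2∆IE replicate 1, whereas the other NSD2∆IE libraries lay below all controls. Ddit4 differed on the log2 scale by -0.24 (SE 0.232, adjusted p = 0.732). Without NSD2∆IE replicate 1 it was -0.51 (adjusted p = 0.381, unadjusted p of 0.0311), with no overlap between the groups.

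**Figure D2:**
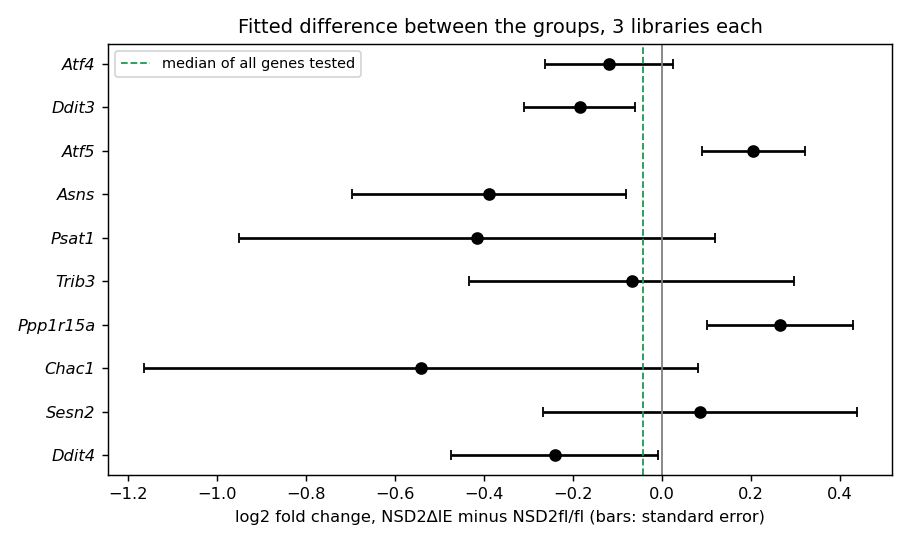
Fitted log2 fold change (NSD2∆IE minus NSD2fl/fl, 3 libraries each) of the 10 genes, with bars for the standard error and a dashed line at the median of all genes tested, -0.04. The points run from -0.54 for Chac1 to 0.27 for Ppp1r15a, and the directions of Atf4, Trib3, Chac1 and Sesn2 turned in at least 1 alternative.

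Levels of different genes were compared per length, in FPKM. Atf4 stood highest, at 92.8 to 122 FPKM over the 6 libraries, above Ddit4 at 28.8 to 46.8 FPKM. Asns followed at 13.5 to 28.0 FPKM and overlapped Atf5 at 12.6 to 18.3 FPKM. Ppp1r15a (6.42 to 11.7 FPKM), Ddit3 (6.08 to 7.20 FPKM), Psat1 (2.90 to 9.91 FPKM) and Sesn2 (2.86 to 7.39 FPKM) came next and overlapped each other. Chac1, at 0.513 to 2.78 FPKM, overlapped Trib3, at 0.384 to 0.751 FPKM. The largest spreads between libraries of 1 group, those of Chac1, Psat1 and Sesn2, were at low levels. Level alone did not order the spread, since Ddit3 overlapped Psat1 and Sesn2 in level and spread little. The within-group SD of log2 CPM was 0.10 for Ddit3 and Atf5, 0.17 for Atf4 and 0.20 for Ppp1r15a, below the median of 0.255 over all genes tested, while it was 0.34 for Ddit4, 0.40 for Trib3, 0.49 for Asns, 0.53 for Sesn2, 0.90 for Psat1 and 0.95 for Chac1.

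The spread had a pattern by library. Among the controls, 9 of the 10 genes were highest in NSD2fl/fl replicate 2, Ddit4 being the exception, and 0 were highest in replicate 3, whereas over all genes tested 5063 of 16347 were highest in replicate 2 and 5390 in replicate 3. The ER chaperones and degradation factors that answer to IRE1 and ATF6 were arranged differently, with 18 of 20 highest in NSD2fl/fl replicate 3 and 0 in replicate 2. The exceptions were Ern1 and Atf6, the genes of the IRE1 and ATF6 sensors themselves. Aminoacyl-tRNA synthetases, also ATF4 targets, resembled the ER list in this (11 of 13 highest in replicate 3). Replicate 1 was lowest in both groups for 5 of the 10 genes, for 6 of 12 serine, one-carbon, proline and transamination enzymes and for 6 of 13 genes of the tRNA synthetase list, against 15.0% of all genes tested. It was lowest in both groups for 2 of 14 further ATF4 and CHOP outputs, 1 of 10 amino acid transporters, 1 of 7 bZIP factors, 4 of 16 eIF2 kinases and regulators and 1 of 20 genes of the ER list. The pattern was thus not common to all lists of ATF4 targets. The remaining lists had 3 of 10 glucocorticoid receptor targets, 2 of 8 paralogs of the 10 genes and 0 of 15 immediate early genes. Ppp1r15b is counted among both the paralogs and the eIF2 regulators. In lists this short, such counts cannot be set apart from the share of all genes tested. These counts describe 6 libraries and were not tested.

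**Figure D3:**
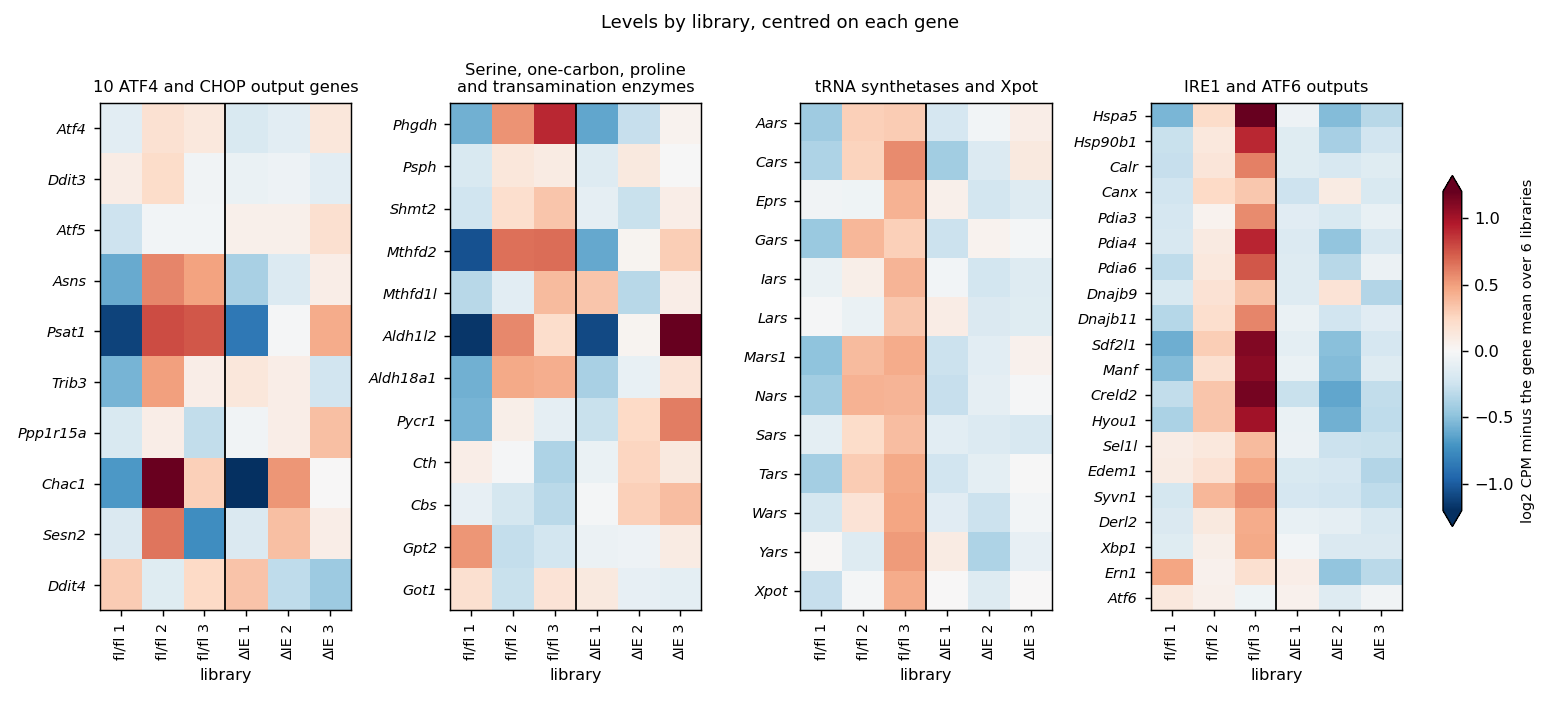
Log2 CPM of each gene minus its mean over the 6 libraries (colour, red above and blue below, arrows on the scale for values beyond it), for the 10 genes and 3 other lists, with a line between the 3 NSD2fl/fl and the 3 NSD2∆IE libraries. Asns, Psat1 and Chac1 are blue in replicate 1 of both groups, and 18 of 20 ER genes are reddest among the controls in NSD2fl/fl replicate 3.

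Of 12838 autosomal genes of sufficient level, the 3 whose centred log2 CPM lay closest to that of Asns were Aldh18a1, an enzyme of proline synthesis (root mean square difference 0.0728), Kif18a (0.102) and Amigo3 (0.103). Aldh18a1 had 35.0, 71.9 and 70.6 CPM in NSD2fl/fl and 39.9, 49.3 and 58.8 CPM in NSD2∆IE. It shared the order of libraries of Asns in both groups, which follows from its choice by likeness over the same libraries. Mthfd2, a mitochondrial one-carbon enzyme, had 6.07, 19.9 and 20.1 CPM in NSD2fl/fl and 8.22, 12.9 and 15.5 CPM in NSD2∆IE. Cth, Cbs, Gpt2 and Got1 of the same list were instead highest among the controls in replicate 1, where Asns was lowest. The closest genes to Atf4 were Fndc3b (0.0343), Zbed3 (0.0362) and Tarbp2 (0.0437). Those closest to Chac1 were more distant, with Gm5431 at 0.184, Socs3 at 0.224 and Zfp820 at 0.241.

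Of the 10 genes, 3 were apart along the split in Hoxb13, near the share of 22.4% of all genes tested. The arrangement was thus not a trait particular to these genes, and it was picked out after the values were seen. The sums of colonocyte and neutrophil markers given above followed the same split, and their part in the arrangement was not tested. Ddit4 was at 71.7 to 76.7 CPM in the 3 libraries high in Hoxb13 and at 44.9 to 54.9 CPM in the other 3. Sesn2 was the reverse, at 8.11 to 12.1 CPM in the libraries high in Hoxb13 and at 14.4 to 21.3 CPM in the others. Ppp1r15a was also lower in all 3 libraries high in Hoxb13. Within the libraries high in Hoxb13, 2 controls and 1 NSD2∆IE library, the difference of mean log2 CPM (NSD2∆IE minus NSD2fl/fl) was 0.07 for Ddit4 and 0.29 for Sesn2, and within the others, 1 control and 2 NSD2∆IE libraries, it was -0.23 and -0.42. The corresponding differences kept 1 sign for Atf4 (-0.19 and -0.18), Ddit3 (-0.11 and -0.32), Atf5 (0.20 and 0.16), Asns (-0.33 and -0.62), Psat1 (-0.67 and -0.57), Ppp1r15a (0.20 and 0.14) and Chac1 (-1.13 and -0.92), and changed it for Trib3 (0.37 and -0.57). With 1 library on 1 side of each, these values carry no test.

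**Figure D4:**
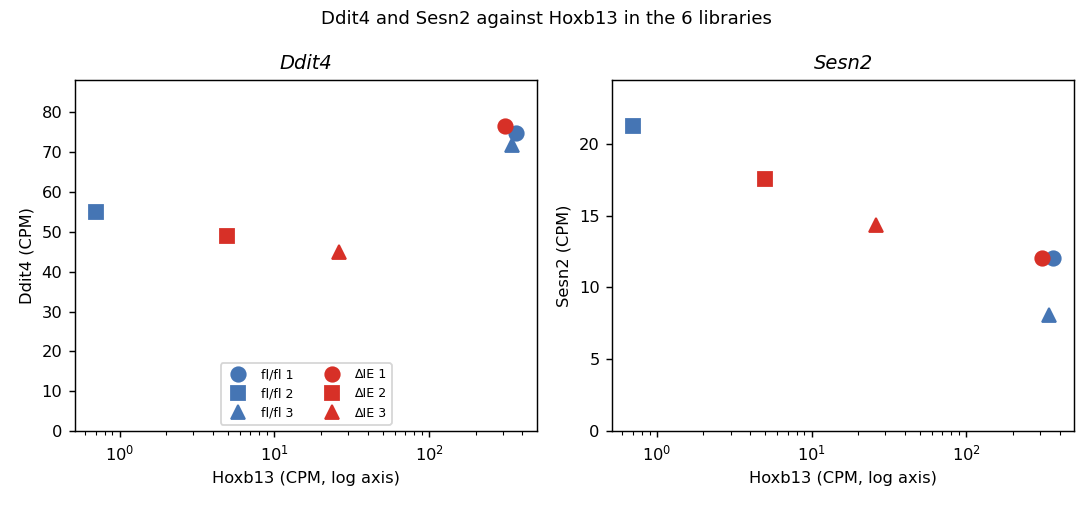
Ddit4 and Sesn2 (CPM, linear axes from 0) against Hoxb13 (CPM, log axis), 1 point per library, blue for NSD2fl/fl and red for NSD2∆IE. The 3 libraries at 310 to 365 CPM of Hoxb13 are the highest in Ddit4 and the lowest in Sesn2, in both genotypes. By this split, 22.4% of all genes tested were apart.

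Upstream of ATF4, the kinases of eIF2 did not pass either threshold. Eif2ak3, which encodes PERK, had 57.4, 60.5 and 59.9 CPM in NSD2fl/fl and 52.5, 50.0 and 51.2 CPM in NSD2∆IE, 2 ranges that did not overlap. Its log2 fold change was -0.21 (SE 0.0886, adjusted p = 0.450). Eif2ak1 (the heme-regulated kinase), Eif2ak2 (PKR) and Eif2ak4 (GCN2) had log2 fold changes of -0.18, -0.14 and 0.14. Of the 16 kinases, eIF2 and eIF2B subunits and regulators tested, 13 were fitted lower and 3 higher. Over all genes tested, 56.3% were below 0. The median was -0.16 against -0.04 over all genes, and the split of this list was not counted in the alternatives. Past the second threshold were Nck1, an adaptor that binds eIF2 and opposes its kinases, which was lower (-0.36, SE 0.119, adjusted p = 0.361, a call kept in 9 of 16 alternatives and lost by library totals, with upper-quartile factors, in both fits to FPKM and without NSD2fl/fl replicate 2 or NSD2∆IE replicate 1 or 3), and Eif2s3x, which was higher.

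Eif2s3x, the X-linked gene of the eIF2 gamma subunit, is known to escape X inactivation and has a Y-linked counterpart, Eif2s3y. It had 90.5, 95.8 and 102 CPM in NSD2fl/fl and 161, 129 and 131 CPM in NSD2∆IE. It was 0.55 higher on the log2 scale (SE 0.126, adjusted p = 0.302 in the quasi-likelihood test and adjusted p = 0.0142 in DESeq2). Eif2s3y had 42.5, 38.0 and 31.1 CPM in NSD2fl/fl and at most 1 count in NSD2∆IE. The sum of both genes, taken after their values were seen, was 133.5 ± 0.402 CPM in NSD2fl/fl and 140.5 ± 17.6 CPM in NSD2∆IE (SD, n = 3 each). The summed level in NSD2∆IE replicates 2 and 3 was below that of the controls and in replicate 1 above it, so the groups overlapped for the sum and not for Eif2s3x alone.

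**Figure D5:**
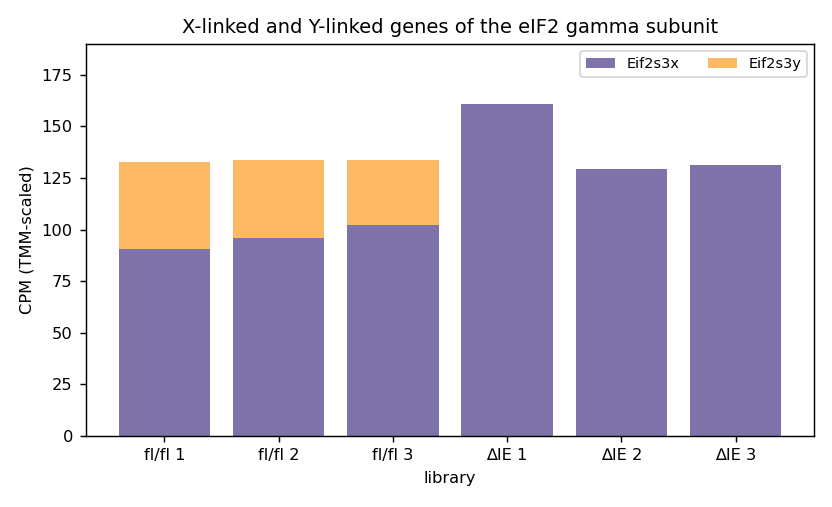
CPM of Eif2s3x (purple) and of Eif2s3y stacked on it (orange) in each library, on an axis from 0. The stacked bars reach 133 to 134 CPM in the NSD2fl/fl libraries, and 161, 129 and 131 CPM in the NSD2∆IE libraries, where Eif2s3y is at or near 0.

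Other targets of the pathway were read from lists, of which no gene had an adjusted p under 0.05 in the quasi-likelihood test. Among 14 tested further outputs of ATF4 and CHOP (Fgf21 did not pass the filter), 13 were fitted lower and 1 higher. Their median log2 fold change was -0.11, and 2 passed the second threshold, both lower, against 2.21% of all genes tested. Over all genes tested, 56.3% were below 0. Several of the 13 lay close to 0, such as Stc2 (-0.004), Map1lc3b (-0.006), Herpud1 (-0.03) and Sqstm1 (-0.04). Library totals alone moved the median of all genes from -0.04 to 0.0856, and the split of this list was not counted there. Vldlr, a receptor for lipoproteins, was at 28.2 ± 2.59 CPM in NSD2fl/fl and 18.9 ± 0.851 CPM in NSD2∆IE (SD, n = 3 each). Its log2 fold change of -0.58 (SE 0.118, adjusted p = 0.302) had an unadjusted p under 0.05 in all 16 alternatives, fell short of the second threshold only on log2(FPKM + 1), and had an adjusted p of 0.00818 in DESeq2. Ero1a, an ER oxidase that serves disulfide formation, was at 55.6 ± 10.3 and 35.7 ± 3.98 CPM, a log2 difference of -0.64 (SE 0.167, adjusted p = 0.306). Neither gene overlapped between the groups.

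Among the genes of amino acid supply 1 was past the second threshold, which 2.21% of all genes tested passed lower and 8.05% higher. Of 12 enzymes of serine, one-carbon, proline and transamination reactions, 7 were fitted lower and 5 higher (median -0.05). The gene past the threshold was Cbs, which makes cystathionine from homocysteine and serine, at 51.4 ± 4.07 CPM in NSD2fl/fl and 69.1 ± 9.60 CPM in NSD2∆IE (log2 fold change 0.43, SE 0.135, adjusted p = 0.344). Its call was kept in 13 of 16 alternatives and lost without NSD2fl/fl replicate 3 or NSD2∆IE replicate 2 or 3. Of 10 amino acid transporters, 4 were fitted lower and 6 higher and 0 passed, the smallest p being those of Slc38a2, a carrier of neutral amino acids (-0.26, adjusted p = 0.463), and of the cystine carrier Slc7a11 (-2.02, adjusted p = 0.491). Slc7a11 had 1.71, 1.24 and 15.0 CPM in NSD2fl/fl and 1.69, 1.31 and 1.42 CPM in NSD2∆IE, so its fold change rests on NSD2fl/fl replicate 3. All 13 genes of the tRNA synthetase list, Xpot included, were fitted lower (median -0.28), where over all genes tested 56.3% were below 0 (median -0.04). With library totals alone and in both fits to FPKM 11 of 13 were lower, and 12 were without NSD2fl/fl replicate 3, where the median was -0.098. Of this list 0 passed the second threshold. Sars had the smallest p of them (-0.33, SE 0.142, adjusted p = 0.454), with no overlap between the groups, followed by Iars (-0.28, adjusted p = 0.539).

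The other bZIP factors that pair with ATF4 or CHOP were 4 lower and 3 higher in the fit (median -0.03), with 0 past the second threshold and the smallest p for Cebpb (0.38, adjusted p = 0.581) and Cebpg (-0.19, adjusted p = 0.634). Paralogs of the 10 genes, which stress induces less or not at all in the textbook account, were likewise not called. Trib1 and Trib2 had log2 fold changes of 0.02 and 0.34, Sesn1 and Sesn3 of 0.19 and -0.26, and Chac2 of -0.20. Ddit4l, Asnsd1 and Ppp1r15b were at -0.14, -0.07 and -0.10, and the smallest adjusted p of the 8 was 0.609. For the arms beside PERK, the 18 outputs of IRE1 and ATF6 on the list and the sensor genes Ern1 and Atf6 were all fitted lower (19 of 20 with library totals alone and in both fits to FPKM) with a median of -0.45 over the 20. Over all genes tested, 56.3% were below 0 and the median was -0.04. Past the second threshold were 5 of the 20, all lower, against 2.21% of all genes tested. These were Edem1 (-0.50, adjusted p = 0.312), Sel1l (-0.40, adjusted p = 0.344) and Syvn1 (-0.53, adjusted p = 0.404) of ER-associated degradation, the ER protein gene Creld2 (-0.90, adjusted p = 0.419) and Ern1 (-0.47, adjusted p = 0.420), which encodes IRE1 alpha. Edem1 kept its call in all 16 alternatives, whereas Sel1l kept it in 10, Creld2 in 9, and Syvn1 and Ern1 in 8, with each of these lost without NSD2fl/fl replicate 3, NSD2∆IE replicate 2 or NSD2∆IE replicate 3, by library totals and in both fits to FPKM. Creld2 and Syvn1 were also lost without NSD2∆IE replicate 1, Syvn1 without NSD2fl/fl replicate 2, and Ern1 without NSD2fl/fl replicate 1 or with upper-quartile factors. Without NSD2fl/fl replicate 3 the median of the 20 was -0.16 and that of the 10 ATF4 and CHOP output genes -0.17, and without NSD2fl/fl replicate 2 they were -0.47 and -0.0014. NSD2fl/fl replicate 3 also had the highest sums of goblet cell and of B and plasma cell markers, whose part in this list was not tested.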

How the data were processed

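RNA was extracted from colon with TRIzol. The authors deposited a whole-number count and an FPKM value per gene symbol and library. Per the submitters' processing notes, fastp, HISAT2, HTSeq and R 3.2.0 were used with build mm10, with no roles given. The annotation and the use of strand are not given in the sources used here.

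The count analysis used edgeR 4.0.16 (R 4.3.3): filterByExpr, TMM factors and the quasi-likelihood test (two-sided, all 6 libraries, no covariates), with Benjamini-Hochberg adjustment over all genes tested. Where no tool is named, an adjusted p-value is of this test. The second threshold (unadjusted p under 0.05, log2 fold change beyond 0.322) follows the one of the study. Standard errors are the size of the log2 fold change over the square root of F. Log2 CPM used a prior count of 2. DESeq2 1.42.0, limma 3.58.1 (also on log2(FPKM + 1) and log2(FPKM + 0.1)), other scalings, no filter, a replicate block, the first principal component as a covariate and each library left out served as alternatives. The quasi-likelihood test was checked on simulated counts. At an adjusted p under 0.05 it recovered 23 of 100 simulated 2-fold changes and 82 of 100 4-fold changes, with 6 false calls. Most 2-fold changes would thus be missed at that threshold.

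The labels gave groups and replicate numbers. They do not say whether libraries came from separate animals, so p-values measure the spread between these samples. No pair of libraries agreed within sampling noise (chi-square over degrees of freedom at least 35.5). The common dispersion was 0.0967.

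The members and lists were chosen with earlier results of these data known. The text names the 10 members and their paralogs, the sex-linked and Nsd2 label checks, the eIF2 kinases and Eif2s3x, and in each list the genes past the second threshold (at most 5) or else the 2 of smallest p. It also names for Atf4, Asns and Chac1 the 3 autosomal genes, of average log2 CPM of at least 1, closest in centred log2 CPM. Mthfd2, Hoxb13 and the genes overlapping members were picked with the values in view. Positions of members are from GENCODE on GRCm38.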

Additional observations from a re-analysis of the deposited data

How the results depend on the processing

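Across 16 alternative fits, 0 of the 10 genes reached an adjusted p under 0.05. DESeq2 called 455 genes in all against 5 in edgeR, none of them among the 10. Scaling by library totals alone moved the median over all genes from -0.04 to 0.0856. Of the 10 genes, 1 was lower past the second threshold with the first principal component as a covariate (Chac1, -1.01, unadjusted p = 0.0316), and leaving out a library gave 0 to 1 (Asns without NSD2fl/fl replicate 1, Ddit4 without NSD2∆IE replicate 1). Higher past it was 1 gene, Atf5, by library totals and on log2(FPKM + 0.1) (1 each). Groups without overlap numbered 1 with upper-quartile factors and 2 to 4 with a library left out, 4 without NSD2fl/fl replicate 1 or 2. The share of 18.7% of all genes given above is for the full set of libraries. A smaller group is more easily apart from the other, and the share of all genes with a library left out was not counted. Over the lists, 9 genes were lower at the second threshold, against 14 without a filter, 3 by library totals, 2 on log2(FPKM + 1), 3 on log2(FPKM + 0.1) and 2 at a fold change over 1.5, and 3 to 35 with a library left out (35 without NSD2fl/fl replicate 1, 4 and 3 without NSD2∆IE replicates 2 and 3). Those higher numbered 5, against 9 with the principal component, 3 at a fold change over 1.5 and 2 to 6 with a library left out (3 without NSD2fl/fl replicate 3, 2 without NSD2∆IE replicate 3). Directions turned for Atf4 (0.017 by library totals, 0.0083 in each fit to FPKM) and Trib3 (0.0048 by upper-quartile factors, 0.071 by library totals, 0.032 on log2(FPKM + 1), 0.094 on log2(FPKM + 0.1), and -0.31 to 0.22 with a library left out, above 0 without NSD2fl/fl replicate 2 or NSD2∆IE replicate 3). They also turned for Chac1 (-0.99 to 0.054 with a library left out, above 0 without NSD2fl/fl replicate 2) and Sesn2 (-0.084 with the principal component, and -0.17 to 0.54 with a library left out, below 0 without NSD2fl/fl replicates 1 or 3 or NSD2∆IE replicate 2). The cause of these changes was not tested. For the alternatives, the share of all genes past the second threshold was not counted. The counts of the 10 genes and of the lists given for them therefore have no background beside them.

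Between libraries of the same replicate number, deviations from the group means correlated at 0.50 and 0.64 for replicates 1 and 2 but at -0.17 for replicate 3. Replicates 1 and 2 were each on the same side of the Hoxb13 split in both groups, and replicate 3 was not. Correlations between different replicate numbers are not given here, so these values do not show pairing by number. The labels name no pairs, and the main fit used none. With the replicate number as a block, 0 of the 10 genes passed either threshold, and 11 genes of the lists were lower and 9 higher at the second threshold. Low counts limit Trib3 and Chac1.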

Other observations

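Lists beside the ATF4 pathway were also read, since Ddit4 is known to answer to glucocorticoids and Ppp1r15a to acute stimuli. Of 10 glucocorticoid receptor targets, 3 were fitted lower and 7 higher (median log2 fold change 0.29), and 2 passed the second threshold, both higher: Sgk1, a kinase that promotes sodium uptake (0.75, SE 0.172, adjusted p = 0.302 in edgeR's quasi-likelihood test), and the clock gene Per1 (0.62, adjusted p = 0.414). Of 15 immediate early genes, 7 were fitted lower and 8 higher (median 0.08), with Ier3 higher (0.70, adjusted p = 0.396) and Klf4, a factor of epithelial differentiation, lower (-0.41, adjusted p = 0.426) at that threshold. Sgk1 kept its call in all 16 alternatives, Per1 and Ier3 in 12 and Klf4 in 8. Without NSD2fl/fl replicate 3 or NSD2∆IE replicate 3 the calls of Per1, Ier3 and Klf4 were lost, as was Per1 without NSD2fl/fl replicate 2 or NSD2∆IE replicate 1, Ier3 without NSD2fl/fl replicate 1, and Klf4 without NSD2fl/fl replicate 1 or NSD2∆IE replicate 2. The background was 2.21% of genes lower and 8.05% higher.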
